A study of Mus musculus with 3 samples.

Results

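Simple keratins and desmosome proteins were followed through the start of Gata6 overexpression in mouse embryonic stem (ES) cells. The 9 genes were the keratins Krt7, Krt8, Krt18 and Krt19 and the desmosome genes Dsp, Jup, Pkp2, Dsg2 and Dsc2. All probe sets that the platform annotation assigns to a member alone were taken, which gave 22 of the 34945 probe sets with 1 gene, and the 9 genes are among 18193 genes on the array. Day 1 and day 2 are ES cells overexpressing Gata6, a DNA-binding regulator that directs cells to primitive endoderm, and day 0 is labelled as the control of that experiment. Dex, taken to mean the synthetic glucocorticoid dexamethasone, is the agent to which the modified cells respond, per the series' design text. The sources used here give neither its dose nor the promoter that drives Gata6, and do not say whether the line is a clone or whether the day 0 cells carried the construct. Day and Gata6 changed together, so an effect of time in culture or of dex itself cannot be told apart from that of Gata6.

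A single array was hybridised for each day, so no difference between days has a replicate check and no p-value is given. The values are MAS5 signals, a linear brightness per probe set that combines its perfect-match and mismatch probes. Signals below 54.0 (the floor, at the 40th percentile of all values) were raised to it before log2 ratios were taken, and each gene is represented by its brightest probe set. A gene is called higher or lower at a ratio of 2-fold or more, provided that its brighter signal lay above the floor. Probe sets of olfactory and vomeronasal receptors, which ES cells should not express, had a 95th percentile of 70.2, and signals near or under it are read as background. Probe sets of the same gene give the only error estimate: the SD of a log2 ratio between them was 0.49 for signals under 200, 0.38 from 200 to 1000 and 0.25 from 1000 to 5000. This error covers measurement on these arrays and not the spread between cultures. In these bulk samples, fewer cells of a type and less RNA per cell cannot be told apart.

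Keratins are intermediate filament proteins that polymerise as pairs of an acidic type I and a basic type II chain. Krt8 and Krt7 are type II and Krt18 and Krt19 type I; Krt8 with Krt18 is the pair of simple, single-layered epithelia, and is also made by the early extraembryonic layers of the mouse embryo. Desmosomes are the junctions on which these filaments are anchored between neighbouring cells. Their membrane proteins are the cadherins desmoglein and desmocollin (here Dsg2 and Dsc2), their plaque holds plakoglobin (Jup) and plakophilin (Pkp2), and desmoplakin (Dsp) ties the plaque to the filaments. Jup is also found in adherens junctions, where it is a close relative of beta-catenin.

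Gata6 read 110 on day 0, 5574 on day 1 and 6070 on day 2 on its brightest probe set. All 8 listed primitive endoderm markers were at least 2-fold higher on day 1 and on day 2 than on day 0. They include Gata6 itself, the gene overexpressed by design. Of 8 ES cell markers 7 were lower on both days. The exception was Tbx3, which read 3518, 4423 and 3559 on day 0, day 1 and day 2.

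The 9 genes went different ways. Krt8, Krt18, Dsp and Dsc2 were higher on day 1 and on day 2 than on day 0, and Jup was lower on both days. Krt19 was lower on day 1 alone, Pkp2 was lower on day 2 alone, and Krt7 and Dsg2 stayed within 2-fold of day 0. Day 1 against day 0, 4 of 9 members were higher, beside 6.00% of the 13602 genes compared, and 2 were lower, beside 6.58%. Day 2 against day 0, 4 were higher, beside 11.0% of 13865 genes, and 2 lower, beside 10.1%. Day 2 against day 1, 3 were higher, beside 5.61% of 13468 genes, and 1 lower, beside 3.67%. The median log2 ratio of the 9 was 0.70 on day 1 and 0.81 on day 2, each against day 0, while that of all genes compared was -0.04 and -0.05. Both medians of the 9 are the ratios of the dim gene Krt7. With the floor at the 60th percentile, which lay above all its signals, these ratios were 0.00. The middle ratio of the 9 was then that of Dsg2, at 0.37 on day 1 and 0.41 on day 2. Day 1 and day 2 were set against the same day 0 array, so their ratios are not independent.

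**Figure D1:**
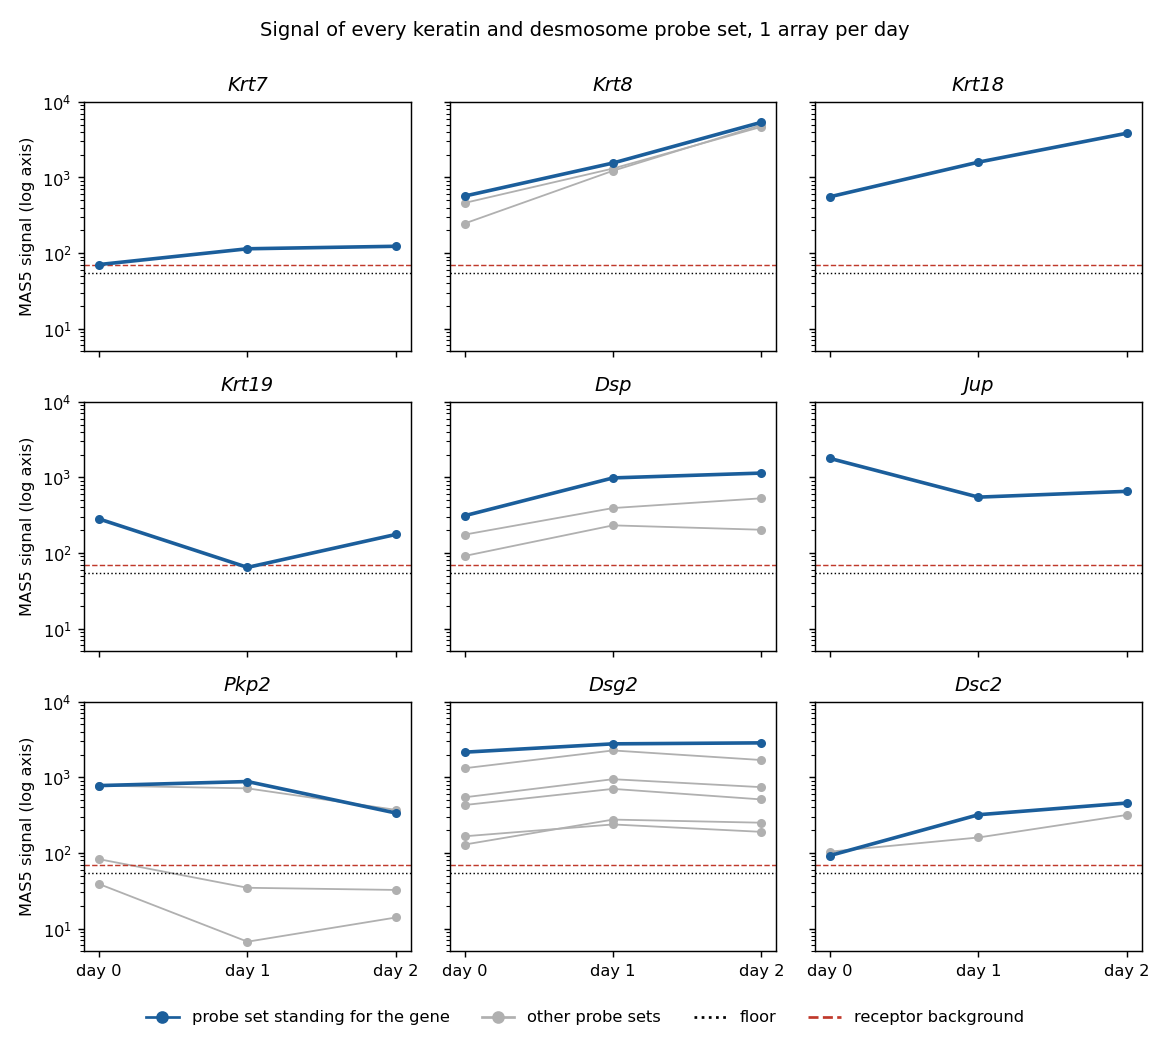
MAS5 signal (log axis) of all 22 probe sets of the 9 genes on day 0, day 1 and day 2, 1 array per day; the thick line is the probe set that stands for the gene, thin lines are its other probe sets, the dotted line is the floor of 54.0 and the dashed line the receptor background of 70.2. The 3 Krt8 probe sets and that of Krt18 climb at each step, Jup is brightest on day 0, and Krt19 reaches the background on day 1.

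Krt8 and Krt18 had the widest increases among the keratins, and both were brighter at each step. Krt8 read 567 on day 0, 1552 on day 1 and 5366 on day 2. It was 2.74-fold higher on day 1 and 9.46-fold higher on day 2 than on day 0, and 3.46-fold higher on day 2 than on day 1. The other Krt8 probe sets read 460, 1312 and 4675, and 246, 1226 and 4943. All 3 therefore had the same order of days, with log2 ratios from 1.45 to 2.32 on day 1 and from 3.24 to 4.33 on day 2, both against day 0. Krt8 stood at rank 128 from the top among the 13865 genes compared between day 2 and day 0.

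Krt18, the type I partner of Krt8, read 556, 1594 and 3846 on day 0, day 1 and day 2. That is 2.87-fold higher on day 1 and 6.92-fold higher on day 2 than on day 0, and 2.41-fold higher on day 2 than on day 1. The log2 ratios of the partners against day 0 lay 0.07 apart on day 1, at 1.45 for Krt8 and 1.52 for Krt18. On day 2 they were 3.24 for Krt8 and 2.79 for Krt18, a gap of 0.45. That is narrower than the range among the 3 Krt8 probe sets, but all 3 lay above Krt18, at 3.24 to 4.33. For day 2 over day 1 the log2 ratio was 1.79 for Krt8 and 1.27 for Krt18, a gap of 0.52, and all 3 Krt8 probe sets lay above Krt18, at 1.79 to 2.01. With 1 array per day, no difference between the partners was tested.

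The 2 genes lie next to each other on chromosome 15. Their annotated start sites are 23874 bases apart in GRCm38.p6, with Krt8 on the minus and Krt18 on the plus strand. The 3 protein-coding genes on either side of the pair were all on the array, and 0 of these 6 differed at least 2-fold from day 0 on day 1 or day 2. Krt4, Krt79 and Krt78 flank Krt8. Krt4 read 87.5, 99.9 and 87.9 on day 0, day 1 and day 2, and Krt79 read 102, 49.9 and 84.0. The day 1 signal of Krt79 was under the floor, and with it raised to the floor the log2 ratio against day 0 was -0.92. On the side of Krt18, the translation factor gene Eif4b was bright on each day, at 10210, 10390 and 9216, and Spryd3 read 264, 227 and 408. Krt78 and Tns2 were under the floor on each array, so they could not show a difference. Among the genes whose signal could be read, an increase of 2-fold or more was thus seen in the Krt8 and Krt18 pair and not in the genes beside it. Of those genes, Krt4 and Krt79 were dim.

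**Figure D2:**
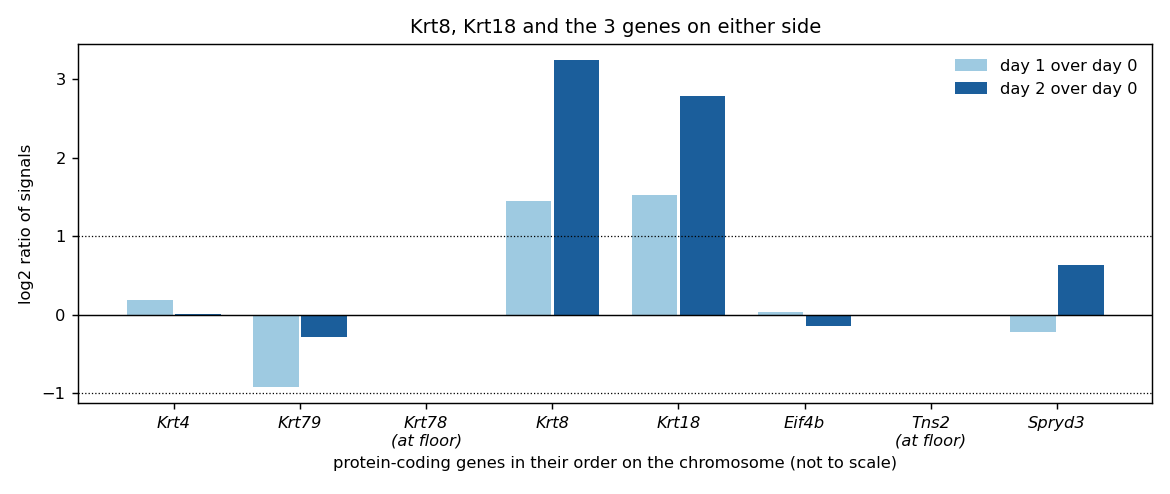
Log2 ratio of day 1 over day 0 (light bars) and day 2 over day 0 (dark bars) for Krt8, Krt18 and the 3 protein-coding genes on either side, in chromosome order and not to scale; dotted lines mark 2-fold. Krt8 reaches 3.24 and Krt18 2.79 on day 2, and none of the 6 flanking genes passes 2-fold.

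The promoter windows of the keratin pair are shown because the genes moved together, and that of Jup because it moved the other way. Each window runs from 250 bases before to 50 bases after the start site annotated by RefSeq on GRCm38.p6, 5′ to 3′ on the gene's strand, and capitals mark a word bound by GATA factors in general (the letters GATA with an A or T before and an A or G after, searched on both strands). The windows are chr15:102004293-102004592 (minus strand) for Krt8, chr15:102027966-102028265 (plus strand) for Krt18 and chr11:100397741-100398040 (minus strand) for Jup.
Krt8: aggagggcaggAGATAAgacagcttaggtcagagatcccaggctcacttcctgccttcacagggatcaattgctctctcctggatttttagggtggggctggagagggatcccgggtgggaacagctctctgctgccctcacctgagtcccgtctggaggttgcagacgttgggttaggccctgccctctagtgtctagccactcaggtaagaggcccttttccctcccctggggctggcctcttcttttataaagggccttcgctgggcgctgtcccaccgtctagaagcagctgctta
Krt18: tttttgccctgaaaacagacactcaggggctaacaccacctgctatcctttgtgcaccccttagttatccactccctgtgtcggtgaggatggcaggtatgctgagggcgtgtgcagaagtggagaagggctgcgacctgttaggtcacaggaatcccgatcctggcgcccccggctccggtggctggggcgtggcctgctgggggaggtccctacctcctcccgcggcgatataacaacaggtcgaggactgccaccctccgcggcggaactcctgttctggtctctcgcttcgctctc
Jup: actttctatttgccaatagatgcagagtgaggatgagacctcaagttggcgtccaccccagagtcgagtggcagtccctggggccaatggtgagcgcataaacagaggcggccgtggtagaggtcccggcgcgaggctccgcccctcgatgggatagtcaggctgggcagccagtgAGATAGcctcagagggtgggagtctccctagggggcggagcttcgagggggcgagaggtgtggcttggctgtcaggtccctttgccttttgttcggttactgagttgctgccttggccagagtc

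Krt8 has 1 such word, AGATAA, which begins 239 bases before its start site, and Jup has 1, AGATAG, which begins 74 bases before its start site. The Krt18 window has 0, and so do those of Krt7 and Dsp. In all, 2 of the 5 member windows in the table hold a word, whereas 29.8% of all 32851 windows do. Of the members with a word, Krt8 was higher and Jup lower. A match in letters is no evidence of binding, and these windows leave out any more distant sequence. The windows differ in base composition: 58.0% of bases are G or C in Krt8 and 61.3% in Krt18, with 6 and 17 CpG dinucleotides.

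Krt7 and Krt19, the other simple keratins, did not share this course. Krt7, a type II keratin of ducts and trophoblast, read 70.5 on day 0, at the receptor background, 114 on day 1 and 123 on day 2. Its log2 ratios against day 0 were 0.70 on day 1 and 0.81 on day 2, below 2-fold and under 2 SDs of the probe set error at this brightness. Both of its ratios were 0.00 when the floor was raised to the 60th percentile, because all its signals lay under that floor.

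Krt19, a short type I keratin, read 282 on day 0, 64.5 on day 1 and 176 on day 2. Day 1 was the dimmest and lay under the receptor background. Krt19 was 4.37-fold lower on day 1 than on day 0 and 2.73-fold higher on day 2 than on day 1. With the day 1 signal at background, both folds are inexact. Day 2 was 1.60-fold lower than day 0, which is under the threshold. The difference rests on 1 dim probe set: when the floor was raised to the 60th percentile, the log2 ratio of day 1 over day 0 was -0.95 and that of day 2 over day 1 was 0.27, both under 2-fold. On day 1, then, Krt19 was lower and Krt18, the other type I keratin, higher than on day 0. On day 2 Krt18 was higher and Krt19 was within 2-fold of day 0.

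**Figure D3:**
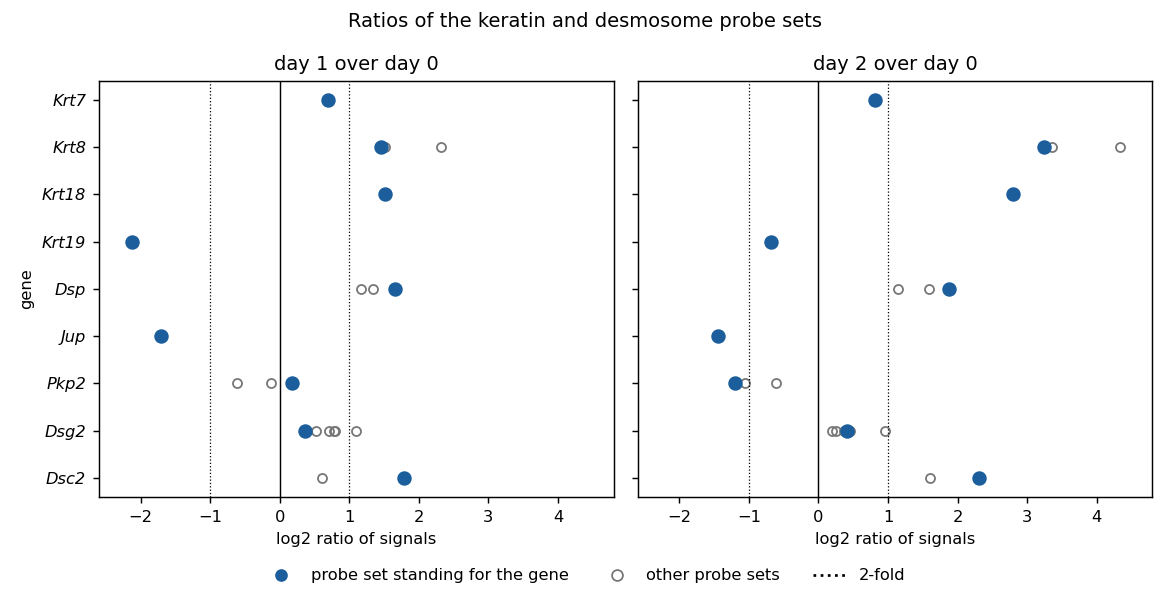
Log2 ratio of day 1 over day 0 (left) and of day 2 over day 0 (right) for each probe set above the floor on at least 1 array; filled points are the probe sets that stand for the genes, open points the others, dotted lines 2-fold. Krt8, Dsp and Dsc2 have every open point right of 0 on both days, while Jup lies left of -1 on both and the Pkp2 points lie around 0 on day 1 and left of 0 on day 2.

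Among the desmosome genes, desmoplakin and the desmocollin were higher and the plaque proteins Jup and Pkp2 were lower, Pkp2 on day 2 alone. Dsp, which binds the keratin filaments, read 311 on day 0, 984 on day 1 and 1140 on day 2. It was 3.16-fold higher on day 1 and 3.66-fold higher on day 2 than on day 0, and day 2 was only 1.16-fold above day 1. Most of the Dsp difference was thus present on day 1, unlike that of Krt8 and Krt18, which went on between day 1 and day 2. The other Dsp probe sets read 175, 393 and 529, and 91.3, 232 and 203. All 3 were at least 2-fold higher on both days, with log2 ratios from 1.17 to 1.66 on day 1 and from 1.15 to 1.87 on day 2.

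Dsc2, the desmocollin of simple epithelia, read 92.4 on day 0, 320 on day 1 and 457 on day 2. It was 3.46-fold higher on day 1 and 4.95-fold higher on day 2 than on day 0. Its second probe set read 104, 160 and 318, with a log2 ratio of 0.61 on day 1 and 1.61 on day 2. Both probe sets passed 2-fold on day 2, and 1 of them did on day 1.

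Dsg2, the desmoglein of simple epithelia, was bright on every day, at 2149 on day 0, 2770 on day 1 and 2854 on day 2. Its 6 probe sets all had positive log2 ratios against day 0, from 0.37 to 1.10 on day 1 and from 0.19 to 0.96 on day 2. Of them, 1 passed 2-fold on day 1 and 0 on day 2. The brightest probe set differed from the others between the later days: it stood at 0.04 for day 2 over day 1, and the other 5 lay between -0.46 and -0.14. The 2 desmosomal cadherins of the list therefore differed in size, with log2 ratios of 0.41 for Dsg2 and 2.31 for Dsc2 on day 2.

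Jup, plakoglobin, read 1779 on day 0, 548 on day 1 and 654 on day 2 on its only probe set. It was 3.25-fold lower on day 1 and 2.72-fold lower on day 2 than on day 0. Day 2 lay 1.19-fold above day 1, a difference under the threshold. The log2 ratio of Jup against day 0 minus that of Dsp was -3.36 on day 1 and -3.32 on day 2.

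Pkp2, the plakophilin of simple epithelia and heart, read 777 on day 0, 879 on day 1 and 337 on day 2. It was 2.30-fold lower on day 2 than on day 0 and 2.61-fold lower on day 2 than on day 1, and within 2-fold of day 0 on day 1. A second bright probe set read 777, 714 and 371, with a log2 ratio of -1.06 for day 2 over day 0 and -0.94 for day 2 over day 1. The third, at 82.7, 34.6 and 32.4, was above the floor on day 0 alone, and the fourth, at 38.8, 6.70 and 14.0, on no array. As a mean over the probe sets, Pkp2 stood at -0.72 for day 2 over day 0 and -0.58 for day 2 over day 1, both under 2-fold.

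Other genes of these structures were compared from lists. Of 19 keratins of epidermis and other epithelia, 11 were above the floor on day 0 or day 2; between those days, 0 were higher and 2 lower. Their median log2 ratio was -0.03, and -0.72 when the floor was raised to the 60th percentile. The 2 were Krt17, which read 272, 86.2 and 23.2 on day 0, day 1 and day 2 and was at least 5.04-fold lower on day 2 than on day 0, and Krt42, which read 2732, 1018 and 1191 and was 2.29-fold lower. The 2 Krt42 probe sets had log2 ratios from -3.20 to -1.20. Krt80 had the widest difference upward, at 0.75, from signals of 60.2, 55.2 and 101. The epidermal keratins Krt1, Krt15 and Krt16 were under the floor on every array, and Krt14 read 55.1 on day 0 and was under the floor later. Krt5, the partner of Krt14, read 145, 105 and 151.

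Of the other desmosome proteins, 10 of 13 listed were on the array and 5 were compared between day 2 and day 0. None of these was higher and 2 were lower, and the median was -0.71 (-0.27 after lowering the floor to the 25th percentile, and -0.11 after adding a pseudocount of 16 instead). Lower were Perp, a membrane protein of desmosomes, at 429, 268 and 201 on day 0, day 1 and day 2, and the plaque protein envoplakin (Evpl), at 183, 125 and 89.7. They were 2.14-fold and 2.04-fold lower on day 2, close to the threshold. Pkp4, a plakophilin relative, read 3062, 2008 and 1873, and Pkp3 read 378, 317 and 377. The desmocollins and desmogleins of stratified epithelium on the array were dark: Dsc1, Dsg1a and Dsg1b were under the floor on each day, and Dsc3 reached 54.5 at most.

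Other intermediate filaments differed in both directions. Of 15 compared between day 2 and day 0, 1 was higher and 4 were lower, with a median of -0.29. Vim, the filament protein of mesenchymal and many cultured cells, read 10570, 14330 and 3210, so it was 1.36-fold above day 0 on day 1 and 3.29-fold below it on day 2. Of the nuclear lamins, Lmna was 3.50-fold higher on day 2 than on day 0, Lmnb2 was 3.79-fold lower, and Lmnb1 was within 2-fold at 2567, 1908 and 1934. The Lmna probe sets above the floor had log2 ratios from 0.48 to 1.81. The neuronal filament genes Ina (2.72-fold) and Prph (at least 2.13-fold) were lower on day 2, and the Prph probe sets ran from -1.09 to 0.38.

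The adherens junction, the other cadherin junction of epithelial cells, had 0 of 13 genes higher and 2 lower on day 2 against day 0, with a median of -0.32. The lower genes were its cadherins Cdh1, at 3131, 1249 and 1480 on day 0, day 1 and day 2, and Cdh3, at 322, 59.6 and 64.6. Cdh3 was 4.99-fold lower on day 2, an inexact fold because its day 2 signal lay under the receptor background. The catenin genes Ctnna1 (17750, 14090 and 12900) and Ctnnb1 (22660, 19350 and 18190) were within 2-fold, whereas Jup, the relative of Ctnnb1, was not. Afdn, which links nectins to actin, had a log2 ratio of -0.76 on day 2 on its brighter probe set and 0.47 on the other.

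Hemidesmosome and cytolinker genes had 1 of 6 higher and 2 lower, with a median of -0.82 (-0.40 with means over probe sets). The tetraspanin Cd151 was 2.65-fold higher on day 2 than on day 0, with log2 ratios from -0.07 to 2.04 over 6 probe sets. The laminin receptor chain Itga6 was 2.24-fold lower and the cytolinker epiplakin (Eppk1) 2.18-fold lower. The Eppk1 fold is inexact and close to the threshold, as its day 2 signal of 63.7 lay under the receptor background. The cytolinker dystonin (Dst) had a log2 ratio of -0.93 on its brightest probe set, and its 4 probe sets ran from -0.93 to 3.37. Keratin partners had a median of -0.24, with 1 of 10 higher and 1 lower. Fam83h was the higher gene and encodes a protein that recruits casein kinase to keratin filaments. It read 274, 310 and 580, and Evpl, named above, was the lower gene. Ppl, also in the desmosome list, read 122, 125 and 83.6.

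Among 14 transcription factors of epithelia, 4 were higher and 3 lower on day 2 against day 0, with a median of 0.00. Elf3, an ETS factor of epithelial cells, read 683, 4715 and 2872 on day 0, day 1 and day 2, and was 6.91-fold higher on day 1 and 4.21-fold higher on day 2 than on day 0. Ovol1 was at least 2.58-fold higher on day 2 on a probe set that read 53.6, 148 and 139, and the other Ovol1 probe set had a log2 ratio of 0.00. The trophectoderm factors Cdx2, at 21.1, 80.0 and 121, and Gata3, at 72.7, 91.6 and 162, were higher on day 2, by at least 2.23-fold and by 2.23-fold, and both stayed dim. Grhl3 was 5.38-fold, Ets2 2.86-fold and Tfap2c 2.76-fold lower; the Ets2 probe sets ran from -1.52 to 0.08.

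**Figure D4:**
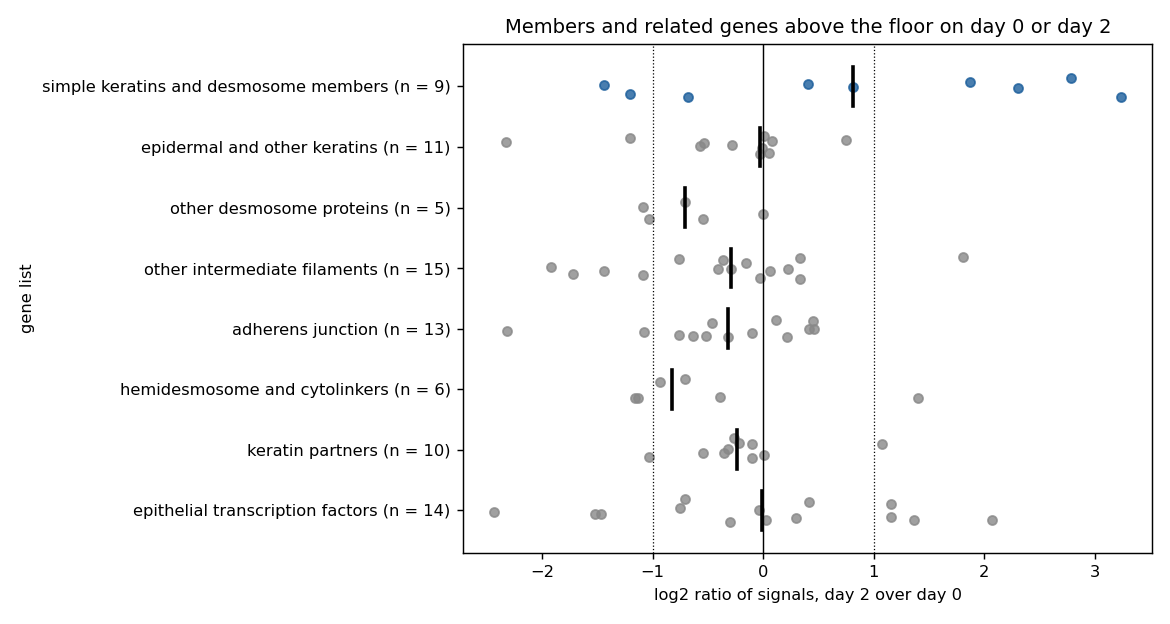
Log2 ratio of day 2 over day 0 for the 9 members (top row) and for the genes of 7 related lists that were above the floor on day 0 or day 2; each point is a gene, the thick bar is the list's median and dotted lines mark 2-fold. The members reach from -1.44 to 3.24, with a median of 0.81 that is the ratio of the dim gene Krt7. None of the 7 related lists has a median above 0.

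Markers of other cells that make keratins or desmosomes were read beside these results. Of 10 trophectoderm markers 7 were compared, with 2 higher and 0 lower on day 1 and 4 higher and 1 lower on day 2, each against day 0. Their median log2 ratio was 0.37 on day 1 and 1.16 on day 2, and the day 2 value was 0.14 when the floor was raised to the 60th percentile. Tead4 was higher on both days, at 191, 418 and 468 on day 0, day 1 and day 2, while Tfap2c, the lower gene, read 885, 574 and 320. Eomes, at 555, 716 and 611, and Hand1, at 312, 158 and 184, were within 2-fold of day 0. The 2 Hand1 probe sets had log2 ratios from -1.31 to -0.76 for day 2 over day 0. The signals of the list summed to 2076, 2305 and 2046. These sums and those below include listed genes under the floor. Elf5 was under the floor on each array, and Ascl2 read 13.8, 238 and 141. The 3 Ascl2 probe sets ran from 0.00 to 1.39 for day 2 over day 0. Epidermal markers had a summed signal of 1138, 607 and 874. On day 1, 1 of 6 was lower, the cornified envelope gene Lor, at 486, 128 and 433. On day 2, 0 of 5 were higher or lower. Krt1, Krt15 and Ivl were under the floor on each array. Krt10 read 309, 166 and 214, and Trp63, a regulator of stratified epithelium, read 66.3, 60.7 and 11.3. Fibroblast markers summed to 709, 448 and 475, with 1 of 3 higher and 1 lower on day 2, and Col1a1, Col3a1, Postn, Dcn, Lum and Fap were under the floor on each array. Thy1, the lower gene, read 421, 75.4 and 50.5, Twist1, the higher gene, read 7.00, 88.9 and 113, and Col1a2 read 84.8, 67.5 and 82.6. The part of such cells in the keratin and desmosome values was not tested.

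The genes with a course most like that of Krt8 were ranked by the distance between their day 1 and day 2 log2 ratios against day 0 and those of Krt8, over 10913 other genes above the floor on all 3 arrays. The nearest 5 were Bag2, St3gal6, Abhd5, Jun and Usp17la, at distances from 0.07 to 0.13. Bag2, a co-chaperone gene, read 232, 664 and 2163 on day 0, day 1 and day 2, and Jun, a subunit of the transcription factor AP-1, read 73.5, 187 and 677. Krt18 stood at rank 23 with a distance of 0.46, Dsc2 at rank 131 and Dsp at rank 259. The ranking rests on 3 arrays and on 1 Krt8 probe set, with log2 ratios of 1.45 and 3.24. Another Krt8 probe set had 2.32 on day 1 and 4.33 on day 2. The distances of the nearest 5 lie under the SD between probe sets (0.25 to 0.49), so their order cannot be read.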

How the data were processed

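Expression was measured on 3 arrays of mouse ES cells, 1 each for day 0, day 1 and day 2, taken from the labels. The deposited table holds an intensity on a linear scale for each probe set, made with MAS5 per the submitters' processing notes, which name no version or scaling target. Their 2% trimmed means were 497.5, 497.6 and 497.7, so a common scaling was already applied; the arrays were set to the same trimmed mean here and all signals are given on that scale. Such scaling assumes equal total signal on each day. Of 45101 probe sets, 64 were controls, 34945 were annotated to 1 gene, 932 to several and 9160 to none; only those with 1 gene were used, and 34741 matched RefSeq (GRCm38.p6) by gene identifier. Promoter windows came from RefSeq on that build. The number of arrays limits the precision. "At least" before a gene's fold marks that its dimmer signal was under the floor and was raised to it. A fold whose dimmer signal lay between the floor and the receptor background is inexact.

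The SD between probe sets is that of the difference between their log2 ratios, over the square root of 2, over 44307 pairs above the floor on all 3 arrays. Alternatives were other floors, a pseudocount of 16, other probe set rules, quantile and cyclic loess normalization (limma 3.58.1) and a 3-fold threshold. The members and lists were chosen with earlier results of these data known. Named genes were all members and Gata6, in each of the 7 related lists the 3 genes with the widest day 2 ratio and any further gene past 2-fold, and the 5 genes nearest to Krt8; other list genes and markers were named after their values were seen. Calling was tested on simulated data. Computation used Python 3.11.15.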

Additional observations from a re-analysis of the deposited data

How the results depend on the processing

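Of 189 log2 ratios of the 9 members under 7 alternatives (27 ratios each), 183 kept their call, 6 fell under 2-fold and 0 of those called changed sign. The 6 belong to Krt19, Pkp2 and Dsc2. Some ratios could not move under some alternatives. Krt7, Krt18, Krt19 and Jup have 1 probe set each, so the other probe set rules left their ratios unchanged. Every Krt8 probe set carries a suffix, so the rule of probe sets without a suffix left Krt8 unchanged. Counts of members moved by over 1.5 times in 8 of 48 cases. Day 1 against day 0, 1 member was lower with the floor at the 60th percentile, beside 517 of 9973 genes. Krt19 dropped out there. At a 3-fold threshold 2 members were higher, beside 346 of 13602 genes. Day 2 against day 0, 1 member was lower with the mean over probe sets, where Pkp2 stood at -0.72, beside 1098 of 13888 genes. At 3-fold 0 were lower, beside 540 of 13865 genes. Day 2 against day 1, 0 members were lower with the mean over probe sets, beside 347 of 13528 genes. The same held with probe sets without a suffix (Pkp2 at -0.94), beside 494 of 13159 genes. At 3-fold 0 were lower, beside 112 of 13468 genes, and 1 was higher, beside 228. With probe sets without a suffix, Dsc2 had a log2 ratio of 0.61 on day 1. Over the 7 alternatives, Krt8 ranged from 3.21 to 3.64, Krt18 from 2.75 to 2.79, Dsp from 1.54 to 1.87 and Jup from -1.48 to -1.42 for day 2 over day 0.

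Of the medians of lists and marker lists, 25 moved by over 0.36 under an alternative and 226 did not. Counts over all genes also moved, and so did the number of genes compared. For day 1 against day 0 that number ran from 9973 with the floor at the 60th percentile to 18193 with the pseudocount. Day 1 against day 0, 539 to 1449 genes were higher (816 as reported, 346 at 3-fold) and 517 to 1747 lower (895 and 288). Day 2 against day 0, 1119 to 2181 were higher (1532 and 720) and 943 to 2077 lower (1399 and 540). Day 2 against day 1, 440 to 1514 were higher (756 and 228) and 272 to 1087 lower (494 and 112). The median log2 ratio of all genes stayed within 0.1 of 0 in each. No paired analysis was possible because each day has 1 array. Dim probe sets, Krt7 and Krt19 among them, limit what can be read.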

Other observations

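Among genes next to a member on its chromosome, some differed from day 0 while the member did or did not. Bmp6, the third gene from Dsp, read 55.1, 587 and 471 on day 0, day 1 and day 2, and Hap1, next to Jup, read 929, 217 and 111. P3h4, on the other side of Jup, read 275, 228 and 557, so it was higher on day 2 than on day 0 while Jup was lower. Ttr, a marker of visceral endoderm next to Dsg2, read 22.9, 68.5 and 3728, while Dsg2 stayed within 2-fold. These genes were chosen after their values were seen.

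Some filament and junction genes were brightest on day 1. The neurofilament gene Nefl read 252, 740 and 318 on day 0, day 1 and day 2, Nefm read 20.6, 105 and 63.5, and the cadherin Cdh2 read 138, 399 and 161. Kazn, which encodes a desmosome-associated protein, had the opposite course, at 511, 184 and 476, as did the cornified envelope gene Lor, at 486, 128 and 433, and Krt19. These genes too were chosen after their values were seen.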
